A study of Mus musculus with 57 samples.

Results

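The chromatin of Fgf5 and Fgf8, a pair of mouse genes that encode fibroblast growth factors, was described from the peak lists of a study of Wnt-stimulated epiblast stem cells and gastrulating embryos. Every listed region that overlapped 98610000 to 98760000 on mouse chromosome 5 (mm9; 150 kb around the Fgf5 start near 98.683 Mb) or 45750000 to 45880000 on chromosome 19 (mm9; 130 kb around Fgf8, which spans about 45.811 to 45.817 Mb) was taken. That gave 310 regions, 153 around Fgf5 and 157 around Fgf8, of the 591931 regions in all 32 lists. The windows were set by coordinates around the genes and not by a measured value, though earlier results of these data were known.

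The study followed chromatin in mouse epiblast stem cells (EpiSCs), lines grown from epiblast explants of E6.0 embryos, and in whole or dissected embryos. ChIP-seq was done for 4 features: H3K4me3, typical of promoters; H3K27ac, found at promoters and enhancers in use; H3K27me3, deposited by the Polycomb group; and the Polycomb protein Ring1b. Open chromatin was mapped by ATAC-seq. All EpiSC groups shared medium with basic Fgf and Activin A, so the cells received an FGF ligand in every condition. Unstimulated cells were kept with IWP2, which blocks Wnt secretion, although some 0 h labels say only that there was no stimulation. In stimulated cells IWP2 was withdrawn and CHIR99021 (3 µM), which activates Wnt signalling by inhibiting GSK3, or Wnt3a protein (125 ng/mL) was added.

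The Wnt3 KO groups, EpiSCs that lack the Wnt ligand Wnt3, comprised 1 library for each of 0, 6, 12 and 72 h of CHIR99021 for H3K4me3 and H3K27ac. For H3K27me3 there were 2 libraries at 0 h and 1 each at 5 h of Wnt3a and 6, 12 and 72 h of CHIR99021. For Ring1b there were 2 libraries at 0 h and 1 each at 5 h of Wnt3a and 72 h of CHIR99021. Wild-type EpiSCs gave H3K27ac at 24 h of CHIR99021 (2 libraries) and 0 h (1 library), and ATAC-seq at 48 h and unstimulated (1 library each). ATAC-seq of wild-type embryos had 2 libraries for E6.0, 2 for E7.2 and 1 for the posterior part of E7.5. The embryo lists carry other stage names inside them than the labels do. Stages are given here as labelled. In Wnt3 KO cells the processing folders, read from the peak names, also split the times. For each feature the 72 h list shared a folder with 1 of the 0 h lists, and any 6 and 12 h lists came from another. The first 0 h replicates of H3K27me3 and Ring1b shared a separate folder with the 5 h Wnt3a lists. Across folders, time and folder cannot be told apart. The labels do not say that replicates came from separate cultures or litters, nor how many embryos were pooled, so p-values measure only the spread between these libraries.

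A listed region is one that passed the peak caller of the authors in 1 library, and the lists hold no read counts. Depth is therefore unknown, and a region that is not listed was not detectable at the depth of that library, not shown to be absent. List lengths were 16287 to 17714 regions for H3K4me3, 10161 to 29056 for H3K27ac, 1012 to 6236 for H3K27me3, 604 to 2244 for Ring1b, 38032 to 41309 for ATAC-seq of EpiSCs and 33881 to 72433 for ATAC-seq of embryos. The 2 input libraries listed 253 and 424 regions, with 0 in either window. Fold enrichment is the value that the authors' peak caller gave each region. It is used here to describe regions and to order them within 1 list. Values from different libraries stand side by side as descriptions. They were not scaled to each other and do not by themselves show a change. All libraries are of bulk material, so a site open in fewer cells and a site less open per cell cannot be told apart.

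Fgf ligands bind FGF receptors on neighbouring cells and signal mainly through the ERK kinase cascade. Fgf5 is a classical marker of the epiblast after implantation and of EpiSCs, and enhancers downstream of the gene are known from mouse pluripotent cells in transition to that state. Fgf8 is made in the primitive streak and later in the tail end of the embryo, where it is needed for the migration of mesoderm cells out of the streak, and its long-range enhancers in the mouse lie partly within the neighbouring gene Fbxw4.

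The Fgf5 promoter is shown because H3K4me3, H3K27ac, H3K27me3 and open chromatin, but not Ring1b, were listed over or next to it in at least 1 library. The stretch, from RefSeq on GRCm38.p6 at chr5:98253934-98254233 of the plus strand, runs from 250 bases before to 50 bases after the gene start and is not in the coordinates of the lists. Capitals mark its single TATAAA match.

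Fgf5 promoter: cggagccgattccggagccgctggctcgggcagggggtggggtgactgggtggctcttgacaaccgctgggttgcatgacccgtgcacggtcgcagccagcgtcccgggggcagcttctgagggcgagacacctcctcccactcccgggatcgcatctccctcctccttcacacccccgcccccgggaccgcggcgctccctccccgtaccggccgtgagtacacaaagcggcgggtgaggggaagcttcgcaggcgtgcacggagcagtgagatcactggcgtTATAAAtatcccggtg

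It holds 29 CpG dinucleotides, against a median of 7 over the 32851 mouse promoters of the same table, and 87.1% of those promoters have fewer. Its GC content is 68.3%, against a median of 52.7%. Of 4 short motifs searched on both strands, TATAAA had 1 match, which starts 34 bases after the gene start, and 13.6% of all promoters hold it. CTTTGAT (the TCF/LEF core, held by 3.73% of promoters), ATGCAAAT (the POU octamer, 1.74%) and TAATCC (an OTX2 core, 7.06%) are not among these letters. For Fgf8 the promoter sequence is not shown.

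Positions below are the middle of a region or element in kb from the gene start, positive in the direction of transcription. Merging overlapping regions of any ChIP or ATAC list gave 13 elements around Fgf5, 9 of them in 2 or more libraries, and 18 around Fgf8, 13 of them in 2 or more. Around Fgf5 12 elements held an ATAC region, 5 H3K4me3, 4 H3K27ac, 6 H3K27me3 and 3 Ring1b. Around Fgf8 13 held an ATAC region, 4 H3K4me3, 8 H3K27ac, 6 H3K27me3 and 2 Ring1b. Because the first merging joins the Fgf5 promoter with a separate site at +1.9 kb, open sites were also merged from ATAC regions alone, a choice made after the data were seen, which gave 14 sites around Fgf5 and 16 around Fgf8.

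**Figure D1:**
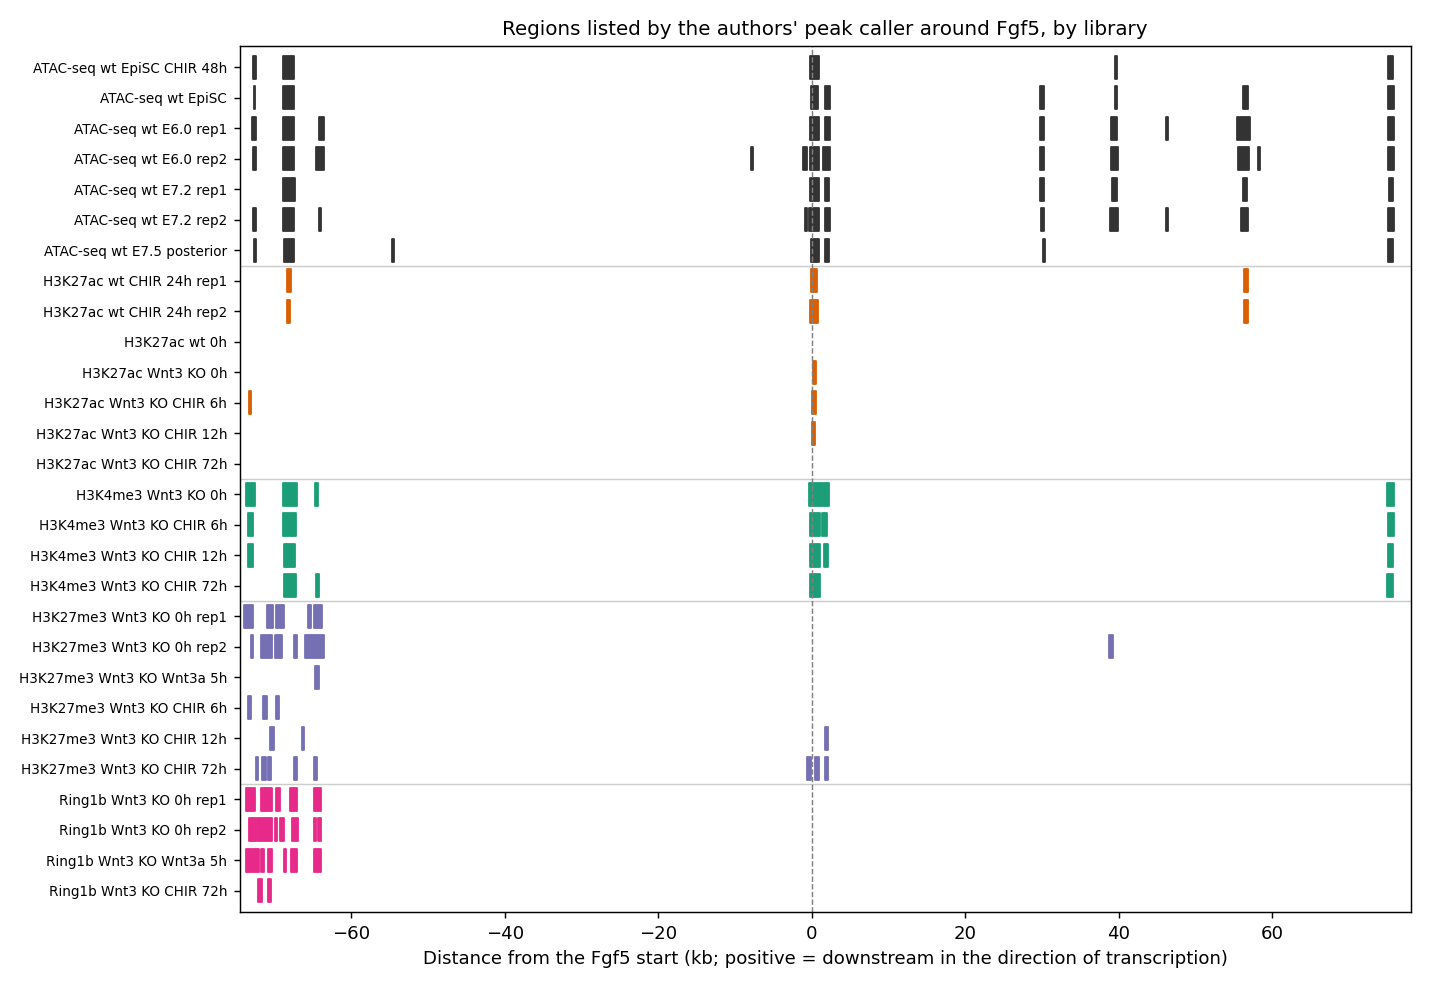
Regions listed in each of 28 libraries (rows, coloured by assay) against the distance from the Fgf5 start in kb; bars are drawn to scale, with the shortest widened so that they can be seen. Open chromatin lies downstream as far as +75.4 kb, whereas Ring1b regions lie only at the left edge and H3K27me3 regions at the gene start appear only in the 12 h and 72 h lists.

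The Fgf5 promoter was open in every ATAC library, and several sites downstream of it were not. In embryos the promoter region (middle at +0.3 kb) had a fold enrichment of 13.7 and 12.2 at E6.0, 8.78 and 11.5 at E7.2, with 12.7 in posterior E7.5. In EpiSCs it had 10.9 at 48 h of CHIR99021 and 11.4 unstimulated. Its summits lay within 170 bp of each other in all 7 libraries.

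The site at +1.9 kb had a fold enrichment of 30.9 and 22.9 at E6.0, 9.67 and 15.8 at E7.2, with 6.78 in posterior E7.5. In EpiSCs it was not listed at 48 h, and had 14.5 unstimulated. It outranked the promoter within its own list in both E6.0 libraries, both E7.2 libraries and unstimulated EpiSCs, and stood below the promoter in posterior E7.5. Its summits fell within 60 bp of each other in the 6 libraries that listed it.

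Farther downstream, the site at +30.0 kb had a fold enrichment of 14.2 and 13.9 at E6.0, 5.30 and 8.09 at E7.2, with 3.50 in posterior E7.5, and it was not listed in EpiSCs at 48 h but had 11.5 in unstimulated EpiSCs. The site at +39.4 kb had 13.9 and 12.2 at E6.0 and 5.89 and 10.5 at E7.2, was not listed in posterior E7.5, and had 4.82 in EpiSCs at 48 h and 7.06 in unstimulated EpiSCs. The site at +56.2 kb had 21.3 and 24.5 at E6.0 and 5.37 and 9.65 at E7.2, was listed neither in posterior E7.5 nor in EpiSCs at 48 h, and had 9.84 in unstimulated EpiSCs. Thus 3 sites, at +1.9, +30.0 and +56.2 kb, were listed in both E6.0 libraries, both E7.2 libraries and unstimulated EpiSCs and were missing from EpiSCs at 48 h, and posterior E7.5 lacked the sites at +39.4 and +56.2 kb. At E6.0 the +56.2 kb site ranked first in its window in the second replicate and stood behind +1.9 and +75.4 kb in the first.

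Weaker open sites around Fgf5 were seen in fewer libraries. A site at +46.3 kb was listed in the first E6.0 replicate at 5.00 and the second E7.2 replicate at 4.76, and a site at −0.9 kb in the second E6.0 replicate at 3.25 and the second E7.2 replicate at 4.11. Sites at −7.8 and +58.2 kb were listed only in the second E6.0 replicate, and a site at −54.5 kb only in posterior E7.5, at 5.97.

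At both edges of the Fgf5 window other open sites stayed listed in all 7 ATAC libraries. At −68.1 kb the fold enrichment was 17.9 and 17.0 at E6.0, 8.78 and 15.5 at E7.2, with 17.8 in posterior E7.5, and 23.4 in EpiSCs at 48 h and 28.7 in unstimulated EpiSCs. At +75.4 kb it was 21.7 and 19.2 at E6.0, 11.6 and 19.3 at E7.2, with 17.5 in posterior E7.5, and 29.5 in EpiSCs at 48 h and 38.1 in unstimulated EpiSCs. In the gene order of GRCm38, Prdm8 (a PR-domain gene) is the next protein-coding gene on the left side and Cfap299 the next on the right, but no annotation of mm9 was at hand to place either site.

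Read against the whole lists, 3 of the 8 Fgf5 regions of unstimulated EpiSCs had no overlap at 48 h, where 33.8% of all regions had none, and 0 of the 5 regions at 48 h were gained, where 27.5% of all were. The share lost around Fgf5 is near that background, so the loss there is a description of named sites and not a property that sets the locus apart. All 3 stayed listed in unstimulated EpiSCs when that list was cut to the length of the 48 h list, which itself stayed whole. The unstimulated and 48 h lists came from different processing folders, and the effect of the folder cannot be told apart from that of stimulation.

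**Figure D2:**
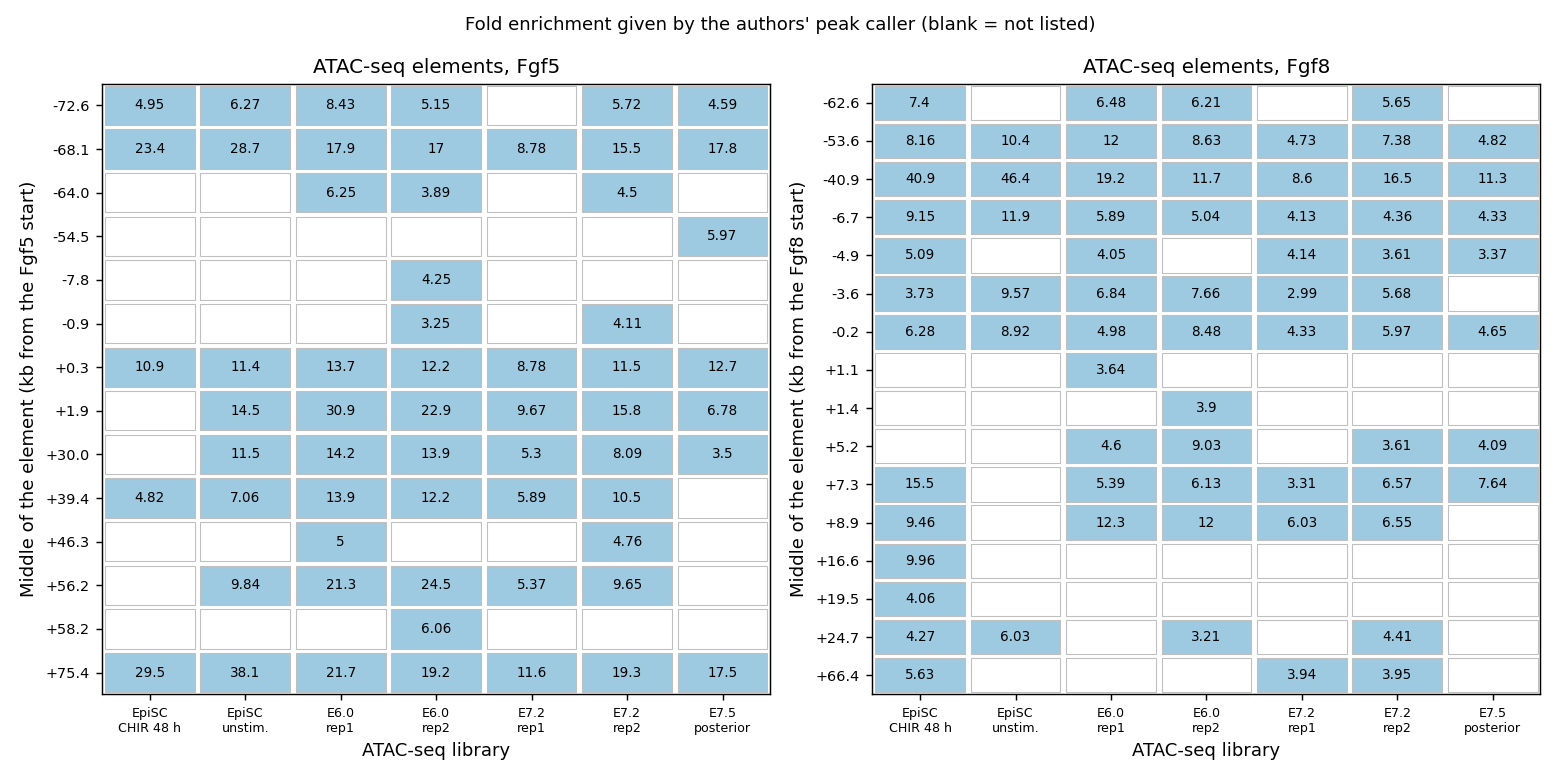
Open sites merged from ATAC-seq regions (rows, middle in kb from the gene start) in 7 libraries (columns) around Fgf5, left, and Fgf8, right; shaded cells print the fold enrichment of the region in that library, and blank cells are not listed. The Fgf5 sites at +1.9, +30.0 and +56.2 kb are blank at 48 h and shaded in unstimulated EpiSCs, while the Fgf8 sites at +7.3, +8.9 and +16.6 kb are the reverse.

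H3K4me3 marked the Fgf5 promoter at every time. The promoter region had a fold enrichment of 33.8 at 0 h, 24.8 at 6 h, 25.2 at 12 h and finally 25.6 at 72 h, and ranked first in the window each time. The open site at +75.4 kb also carried H3K4me3 at every time and ranked second. It had 33.6 at 0 h and 25.2 at 72 h, close to the promoter, and 15.1 at 6 h and 14.4 at 12 h. A separate H3K4me3 region over the +1.9 kb site had 5.90 at 0 h, 9.73 at 6 h and 8.70 at 12 h, and was not listed at 72 h. This region was among the weak ones, above 6.32% of the 0 h list, 27.2% of the 6 h list and 22.1% of the 12 h list. It was the only 1 of 6 H3K4me3 regions of the 0 h window with no overlap at 72 h, where 4.83% of all 0 h regions had none, and 0 of the 4 regions at 72 h were gained, where 6.69% of all were. With lists of equal length, the 0 h region at −73.1 kb, whose overlapping 72 h region ends outside the window, was lost as well.

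H3K27ac at the Fgf5 promoter was listed at 0, 6 and 12 h in Wnt3 KO cells and at 24 h in wild-type cells. In Wnt3 KO cells it had a fold enrichment of 4.89 at 0 h, 5.59 at 6 h and 6.26 at 12 h, and no region was listed at 72 h. In wild-type cells it had 4.52 and 4.59 at 24 h and no region at 0 h. In Wnt3 KO cells 8.45% of the 0 h list, 10.1% of the 6 h list and 21.3% of the 12 h list had a lower fold enrichment, so these regions were among the weak ones of their lists. The wild-type 24 h regions stood above 37.3% and 36.5% of theirs.

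The wild-type 24 h libraries also listed H3K27ac at +56.5 kb (3.92 in the first replicate; 3.28 with its middle at +56.6 kb in the second) and at the −68 kb site (3.81 at −68.0 kb; 4.33 at −68.2 kb), again with none at 0 h. All 3 regions of the first replicate were thus gained, where 59.1% of all regions were, and no 0 h region existed to be lost. The whole 24 h lists covered 2.39 times the length of the 0 h list, and with lists of equal length the 24 h libraries listed 0 regions around Fgf5. The wild-type times also came from separate folders. In Wnt3 KO cells the single 0 h region was lost at 72 h, where 30.4% of all were, but it too dropped out with lists of equal length.

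H3K27me3 at the Fgf5 start was listed only at 12 and 72 h of CHIR99021. No region near the start was listed in either replicate at 0 h, at 5 h of Wnt3a or at 6 h of CHIR99021. At 12 h a region at +1.9 kb had a fold enrichment of 6.09, and at 72 h regions at −0.4, +0.7 and +2.0 kb had 4.72, 5.40 and 6.03. The region at +2.0 kb ranked first of the 8 H3K27me3 regions of the 72 h window. The 12 h and 72 h regions at +1.9 and +2.0 kb lie over the open site that was not listed at 48 h in wild-type EpiSCs and over the H3K4me3 region that was not listed at 72 h.

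The H3K27me3 lists held 4332 and 6236 regions at 0 h, 1012 at 5 h of Wnt3a, 2572 at 6 h, 3056 at 12 h and 3150 at 72 h, so the lists with regions at the start were shorter than those of 0 h and longer than those of 5 and 6 h. The part of list length was not tested. Around Fgf5 4 of the 8 regions at 72 h were gained, at −72.3, −0.4, +0.7 and +2.0 kb, where 27.5% of all were. Cutting to equal length shortened only the 0 h lists, so that setting could not undo these gains. With a −log10 q of at least 5, the regions at +0.7 and +2.0 kb were gained and that at −0.4 kb dropped out. With 1 library at 72 h and at 12 h, there is no replicate check. No Ring1b region was listed near the Fgf5 start in any of the 4 Ring1b libraries.

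All Ring1b regions of the Fgf5 window, and most of its H3K27me3 regions, lay at its left edge, about −73 to −64 kb, around the open site at −68.1 kb. Apart from the regions near the start, H3K27me3 was listed elsewhere only at +38.9 kb in the second 0 h replicate, where a fold enrichment of 7.05 made it the first of 7 regions; the first 0 h replicate and the later lists had none there. Ring1b listed 6 and 8 regions there at 0 h, 7 at 5 h of Wnt3a and 2 at 72 h, the last at −71.9 kb (7.64) and −70.7 kb (5.54). At 0 h the Ring1b regions reached a fold enrichment of 6.79 in the first replicate and 8.70 in the second. H3K4me3 was listed at the same open site at every time, with 1 region at 0 h (14.3), a pair of regions at 6 h (8.18 and 12.3) and at 12 h (5.48 and 11.8), and 1 region at 72 h (20.3).

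Ring1b covered 862 bp of the Fgf5 window at 72 h, against 4146 and 4850 bp at 0 h, a difference of −3636 bp beside an SD of 498 bp between the 0 h libraries. The ratio was 0.192 in the window and 0.222 over the whole lists, 4 of 6 regions were lost, where 72.9% of all were, and 0 of 2 regions were gained, where 22.2% of all were, so the drop is near that of the whole list; with lists of equal length it shrank to −831 bp. H3K27me3 covered 3374 bp at 72 h, against 3410 and 5729 bp at 0 h, a difference within the 1640 bp SD of the 0 h pair. That difference came to −36 bp without the second 0 h replicate and −2355 bp without the first. The H3K27me3 ratio was 0.738 in the window, beside 0.398 over the whole lists. Of 6 H3K27me3 regions shared by both 0 h libraries, 4 were lost, where 58.5% of all were.

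**Figure D3:**
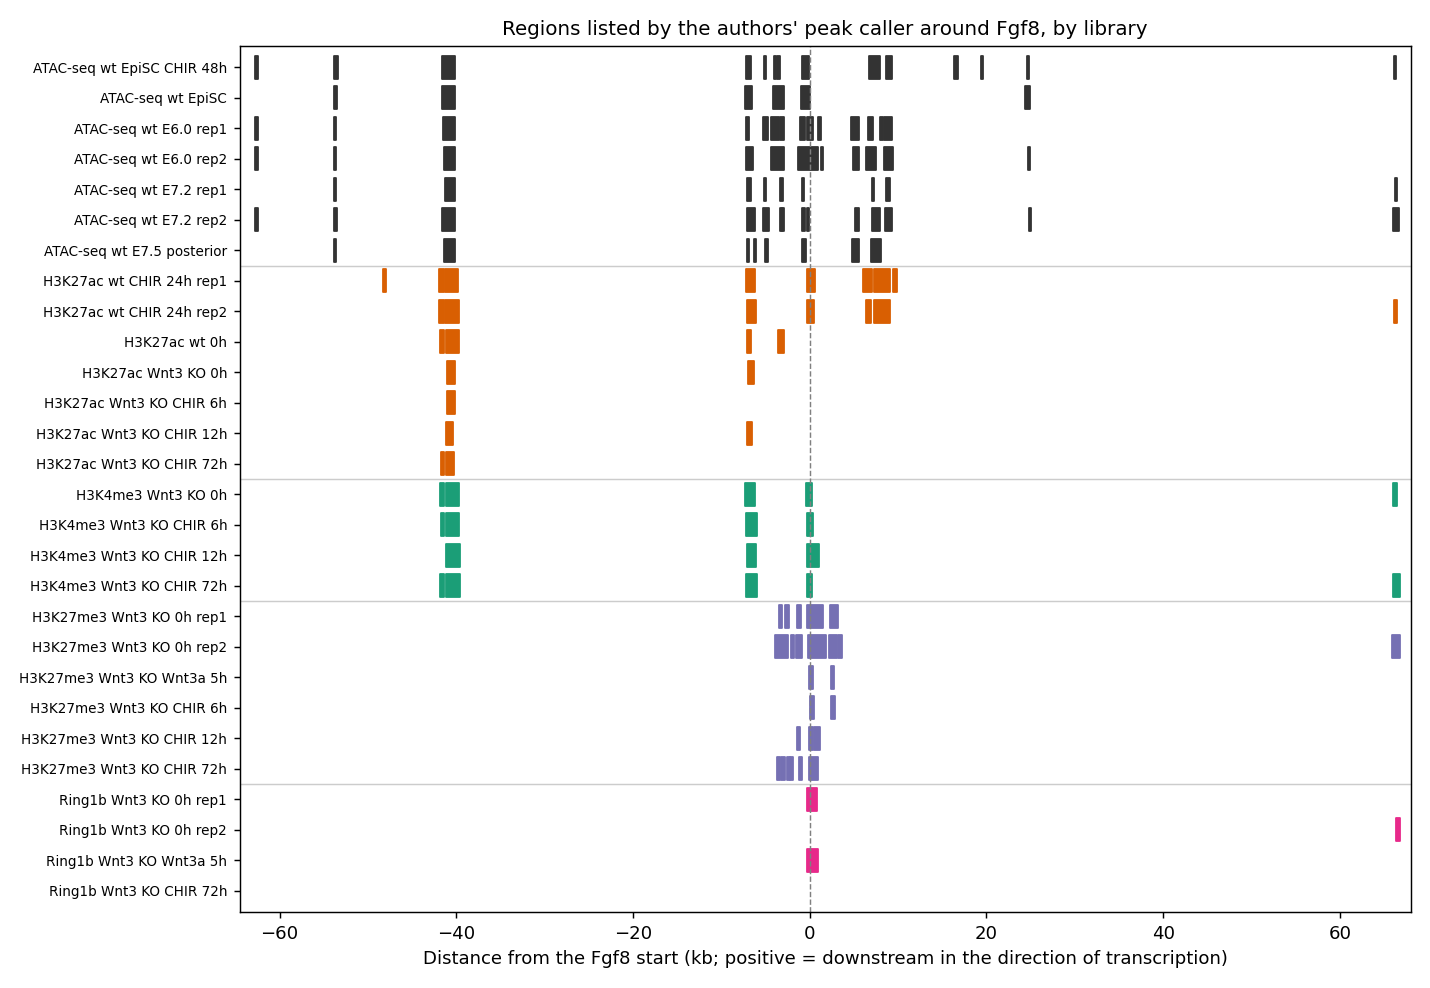
Regions listed in each of 28 libraries (rows, coloured by assay) against the distance from the Fgf8 start in kb, positive in the direction of transcription; the shortest bars are widened so that they can be seen. H3K27me3 and Ring1b regions sit around the gene start, apart from 1 of each near +66 kb in the second 0 h replicates; H3K4me3 and H3K27ac share the sites at −40.9 and −6.7 kb, and the downstream sites at +6.5 to +8.9 kb carry H3K27ac only in the wild-type 24 h lists.

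At Fgf8 the promoter carried Polycomb marks from the start. H3K27me3 over the start had a fold enrichment of 7.58 and 10.6 at 0 h and 4.89 at 5 h of Wnt3a. It had 7.93 at 6 h, 7.75 (a region at +0.8 kb, beside another at +0.1 kb with 7.19) at 12 h and finally 5.27 at 72 h. It was listed in all 6 H3K27me3 libraries, and stood above 49.8% of the 72 h list and above 95.7% and 96.9% of the 0 h lists, which differ in length.

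Flanking H3K27me3 regions were listed as well. At 72 h they lay upstream only, at −3.5, −3.0, −2.4, −2.0 and −1.0 kb. At 0 h they lay on both sides, at −3.3, −2.6, −1.2 and +2.7 kb in the first replicate and at −3.1, −2.0, −1.2, +2.6 and +3.4 kb in the second. The downstream flank at +2.6 kb was still listed at 5 h of Wnt3a (3.80) and at 6 h of CHIR99021 (6.94). At 12 h the flanking region lay upstream, at −1.3 kb (7.75). The region at +2.7 kb was the only 1 of 5 shared 0 h regions that was lost, where 58.5% of all were, and 0 of 6 regions at 72 h were gained, where 27.5% of all were. H3K27me3 covered 2878 bp at 72 h, against 3884 and 6684 bp at 0 h, a difference of −2406 bp beside an SD of 1980 bp. That difference came to −1006 bp without the second 0 h replicate and −3806 bp without the first. With lists of equal length it was −1387 bp, less than that SD. The ratio was 0.545 in the window, beside 0.398 over the whole lists.

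Ring1b over the Fgf8 start had a fold enrichment of 6.34 in the first 0 h replicate and 7.69 at 5 h of Wnt3a. The second 0 h replicate listed none there but 1 at +66.5 kb (5.77), where H3K27me3 was listed only in the second 0 h replicate (5.91), and the 72 h library listed 0 in the window. The same site near +66 kb also held H3K4me3 at 0 h (4.87) and 72 h (8.73). H3K27ac was listed there only in the second wild-type 24 h replicate (3.51). Since the 0 h replicates shared no Ring1b region, no loss could be counted. With lists of equal length, neither 0 h nor 72 h left any Ring1b coverage in the window.

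H3K4me3 at the Fgf8 promoter had a fold enrichment of 10.6 at 0 h, 11.1 at 6 h, 12.3 at 12 h and finally 7.34 at 72 h. At every time it stood below the H3K4me3 regions over the open sites at −6.7 and −40.9 kb of the same list. Those had 23.4 (middle at −6.6 kb) and 37.0 (middle at −40.4 kb) at 72 h, against 30.2 (−6.7 kb) and 31.5 (−40.5 kb) at 0 h. Around Fgf8, 0 of 5 H3K4me3 regions were gained and 0 of 5 were lost at 72 h, against 6.69% and 4.83% of all. H3K4me3 covered 4488 bp at 72 h, against 4104 bp at 0 h, a difference of 384 bp that turned to −46 bp in a window 20 kb longer on each side.

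H3K27ac at the Fgf8 promoter was listed only in wild-type cells at 24 h, with a fold enrichment of 5.05 and 5.24. It was listed neither in wild-type cells at 0 h nor in Wnt3 KO cells at 0, 6, 12 or 72 h. Downstream, on the side of Fbxw4, the 24 h libraries listed H3K27ac at +8.2 kb (10.6) and +8.1 kb (10.1) and at +6.5 kb (6.41) and +6.7 kb (6.66), with none at 0 h or in Wnt3 KO cells. Within each 24 h list the +8 kb region was the second of the window, above the promoter.

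Upstream of Fgf8 no H3K27ac region shared by both 24 h replicates was gained. In wild-type cells a region at −3.3 kb was not listed at 24 h and had 5.54 at 0 h. Regions at −6.7 kb had 6.90 (first replicate) and 7.23 (second, middle at −6.6 kb) at 24 h and 7.44 (middle at −6.9 kb) at 0 h in wild-type cells. In Wnt3 KO cells the same site had 6.46 at 0 h and 6.96 at 12 h, and was listed neither at 6 h nor at 72 h.

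The site near −40.9 kb had H3K27ac in all 7 libraries. It had 19.1 and 19.5 at 24 h and 12.1 at 0 h in wild-type cells. In Wnt3 KO cells it had 12.9 at 0 h, 9.22 at 6 h, 7.94 at 12 h and finally 13.3 at 72 h. It was the leading H3K27ac region of the window in each, and carried no H3K27me3 or Ring1b. In the gene order of GRCm38 the next protein-coding genes on this side are Npm3 and then Oga, which mm9 coordinates at hand could not place.

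Of 6 Fgf8 H3K27ac regions shared by the 24 h replicates 3 were gained, at +8.2, +6.5 and +0.1 kb, where 59.1% of all were, and 1 of 4 regions at 0 h was lost, at −3.3 kb, where 14.5% of all were. The 3 gains held with lists of equal length, where the background share gained was 35.5%. That setting shortened only the 24 h lists and so could not undo the loss, for which the background share was 23.4%. H3K27ac covered 7554 and 6653 bp at 24 h, against 2949 bp at 0 h, and its ratio of 2.41 was near the 2.39 of the whole lists, so the added length at Fgf8 is not particular to it. In Wnt3 KO cells 1 of 2 regions, at −6.7 kb, was lost at 72 h, where 30.4% of all were, and 1 of 2 was gained, at −41.6 kb on the flank of the −40.9 kb site, where 17.4% of all were. The loss held with lists of equal length, a setting that shortened only the 0 h list and so could not undo the gain. H3K27ac covered 1245 bp at 72 h and 1574 bp at 0 h.

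Open chromatin around Fgf8 in EpiSCs was wider at 48 h than in unstimulated cells, on the downstream side above all. The site at +7.3 kb had a fold enrichment of 15.5 at 48 h and was not listed unstimulated; in embryos it had 5.39 and 6.13 at E6.0, 3.31 and 6.57 at E7.2, with 7.64 in posterior E7.5. The site at +8.9 kb had 9.46 at 48 h and was not listed unstimulated; in embryos it had 12.3 and 12.0 at E6.0 and 6.03 and 6.55 at E7.2, and was not listed in posterior E7.5. Both sites were open in E6.0 embryos, the stage from which the lines were derived.

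Sites at +16.6 kb (9.96) and +19.5 kb (4.06) were listed in EpiSCs at 48 h and in none of the other 6 libraries. The site at +66.4 kb was listed in EpiSCs at 48 h (5.63) and in both E7.2 libraries (3.94 and 3.95), but neither at E6.0, nor in posterior E7.5, nor in unstimulated EpiSCs. The site at +5.2 kb was an embryo site, with 4.60 and 9.03 at E6.0, 3.61 in the second E7.2 replicate and 4.09 in posterior E7.5, and was listed in neither EpiSC library. The site at +24.7 kb was listed in both EpiSC libraries (4.27 at 48 h and 6.03 unstimulated), in the second E6.0 replicate (3.21) and in the second E7.2 replicate (4.41).

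The Fgf8 promoter was open in all 7 libraries, and so were sites at −6.7, −40.9 and −53.6 kb. The promoter (middle at −0.2 kb) had a fold enrichment of 4.98 and 8.48 at E6.0, 4.33 and 5.97 at E7.2, with 4.65 in posterior E7.5, and 6.28 in EpiSCs at 48 h and 8.92 in unstimulated EpiSCs. The −40.9 kb site had 19.2 and 11.7 at E6.0, 8.60 and 16.5 at E7.2, with 11.3 in posterior E7.5, and 40.9 in EpiSCs at 48 h and 46.4 in unstimulated EpiSCs. Summits at the promoter were spread over 800 bp, against 100 bp at the −40.9 kb site. That site led the window in every ATAC library but the second E6.0 replicate, where the +8.9 kb site stood above it. The −6.7 kb site ranged from 4.13 to 11.9 and the −53.6 kb site from 4.73 to 12.0.

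Closer upstream, the site at −3.6 kb had 6.84 and 7.66 at E6.0, 2.99 and 5.68 at E7.2, 3.73 in EpiSCs at 48 h and 9.57 in unstimulated EpiSCs, and was not listed in posterior E7.5. It overlaps the place where H3K27ac was listed only in wild-type cells at 0 h and where H3K27me3 was listed at 0 and 72 h in Wnt3 KO cells. The site at −4.9 kb was listed in 5 libraries, all but the second E6.0 replicate and unstimulated EpiSCs, and the site at −62.6 kb in both E6.0 libraries, the second E7.2 replicate and EpiSCs at 48 h.

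Of the 14 Fgf8 regions at 48 h 7 were gained, at +66.2, +19.5, +16.6, +8.9, +7.3, −5.1 and −62.7 kb, where 27.5% of all regions were, and 0 of the 6 unstimulated regions were lost, where 33.8% of all were. Cutting to equal length shortened only the unstimulated list, so that setting could not undo these gains. ATAC regions covered 7338 bp at 48 h, against 5472 bp unstimulated, a window ratio of 1.34 beside 0.912 over the whole lists; around Fgf5 they covered 3710 bp at 48 h, against 5413 bp unstimulated, a ratio of 0.685. The difference of 1866 bp at Fgf8 came to 3585 bp when regions within 1 kb were merged. With 1 library on each side, from different folders, this difference has no test.

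Across the embryo stages the length covered by open regions was lower at E7.2 and in posterior E7.5 than at E6.0 around both genes in each library. At Fgf5 ATAC regions covered 8235 and 9831 bp at E6.0, 5202 and 7756 bp at E7.2, with 4322 bp in posterior E7.5. At Fgf8 they covered 8125 and 9462 bp at E6.0, 3456 and 7555 bp at E7.2, with 4350 bp in posterior E7.5. The first E7.2 replicate was the low one of its pair at both genes, and its list of 33881 regions was the shortest of the ATAC lists, against 72433 in the second.

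The difference of E7.2 minus E6.0 was −2554 bp at Fgf5 and −3288 bp at Fgf8, each with p = 0.333 by an exact two-sided permutation test over 2 and 2 libraries, which is the smallest p this design allows. With lists of equal length p was 0.333 at Fgf5 and 1.0 at Fgf8. Within the 2 folders that hold both stages the difference was −3033 and −2075 bp at Fgf5 and −4669 and −1907 bp at Fgf8. Without the first E7.2 replicate it came to −1277 bp at Fgf5 and −1238.5 bp at Fgf8, and without the second to −3831 and −5337.5 bp; without the second E6.0 replicate the Fgf5 value was −1756 bp. The whole lists covered on average 0.752 times the length at E7.2, beside 0.717 around Fgf5 and 0.626 around Fgf8, but the E7.2 replicates differed. Against the mean of E6.0, the first replicate covered 0.483 times the length over its whole list, 0.576 around Fgf5 and 0.393 around Fgf8, and the second 1.02 times over its whole list and 0.859 around either gene. These ratios by replicate were added after the values were seen.

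Of the regions that both E6.0 libraries listed, 1 of 10 around Fgf5 (at +55.5 kb, on the flank of the +56.2 kb site) and 1 of 11 around Fgf8 (at −3.9 kb) were lost at E7.2, where 13.2% of all were. Of those that both E7.2 libraries listed, 0 of 8 around Fgf5 and 1 of 9 around Fgf8 (at +66.3 kb) were gained, where 3.61% of all were. With lists of equal length the loss at −3.9 kb held, and neither the loss at +55.5 kb nor the gain at +66.3 kb was called. Posterior E7.5 was set against E6.0 as well, a comparison chosen after the data were seen that shares the E6.0 libraries with the one before. It lost 4 of 10 around Fgf5 (at −63.9, +39.4, +55.5 and +56.4 kb) and 5 of 11 around Fgf8 (at +8.9, 0.0, −3.1, −3.9 and −62.6 kb), where 46.3% of all were. It gained 1 of 7 around Fgf5 (at −54.5 kb) and 1 of 8 around Fgf8 (at −6.2 kb), where 33.5% of all were. The region at 0.0 kb belongs to the Fgf8 promoter site, of which another region stayed listed. These shares lie near or under the background. With lists of equal length the losses at +39.4, +56.4, +8.9, −3.9 and −62.6 kb held. With a −log10 q of at least 5 the gain at −6.2 kb was not called and the +30.0 kb site was lost as well.

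Posterior E7.5 minus E6.0 was −4711 bp at Fgf5 and −4443.5 bp at Fgf8, beside SDs of 1128.5 and 945 bp between the E6.0 libraries and whole-list ratios of 0.658. At Fgf8 it was −2505 bp with lists of equal length. Posterior E7.5 minus E7.2 was −2157 bp at Fgf5 and −1155.5 bp at Fgf8; without the second E7.2 replicate these came to −880 and 894 bp, so the second turned direction, and without the first to −3434 and −3205 bp. A posterior part was set here against E6.0 and E7.2 libraries whose labels name the embryo and no part, so stage and part cannot be told apart.

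**Figure D4:**
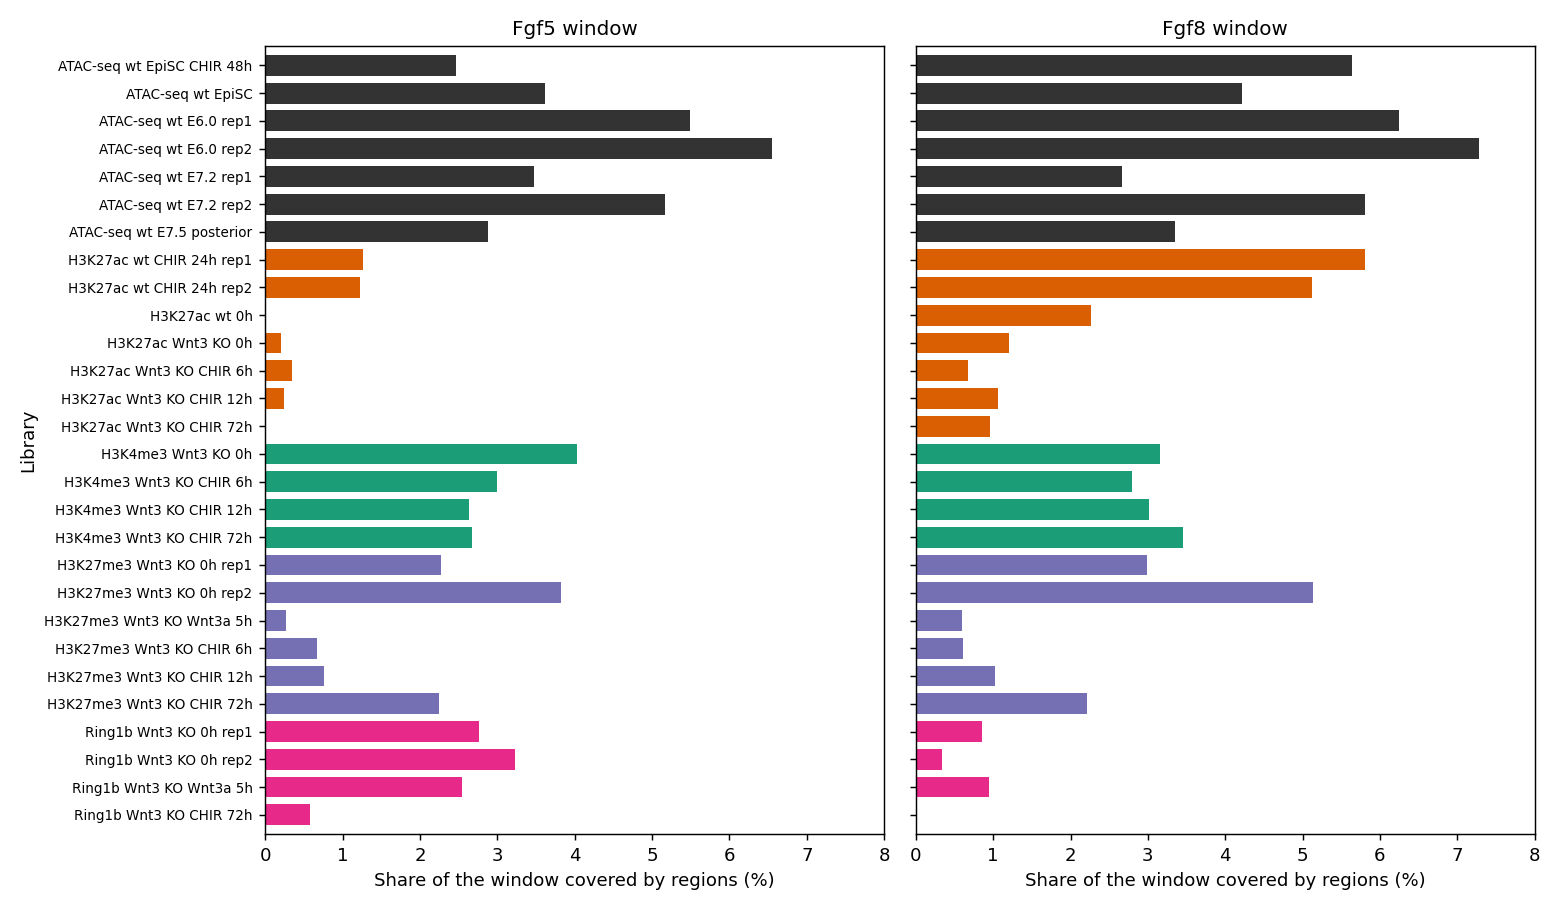
Share of the Fgf5 window (left) and the Fgf8 window (right) covered by listed regions, in percent, 1 bar per library, coloured by assay; there are no error bars, as each bar is 1 library. ATAC-seq of EpiSCs covers 2.47% at 48 h and 3.61% unstimulated around Fgf5, and 5.64% at 48 h and 4.21% unstimulated around Fgf8; Ring1b at 72 h covers 0.575% and 0%.

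Set side by side, EpiSCs at 48 h had fewer open sites downstream of Fgf5 and more downstream of Fgf8 than unstimulated EpiSCs. The embryos did not split that way by stage, since E6.0 and E7.2 libraries listed both the Fgf5 sites at +1.9, +30.0 and +56.2 kb and the Fgf8 sites at +7.3 and +8.9 kb. Posterior E7.5 listed the Fgf5 sites at +1.9 and +30.0 kb and the Fgf8 site at +7.3 kb, but neither the Fgf5 site at +56.2 kb nor the Fgf8 site at +8.9 kb.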

How the data were processed

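Peak lists of 32 of the 57 samples (23 ChIP-seq, 2 input, 7 ATAC-seq) were used, 1 list per library in mm9 coordinates; 25 samples of 4C were not analysed here. The submitters' processing notes name Bowtie 1.1.0, Bowtie2 2.1.0, cutadapt 1.8.1, SAMtools 0.1.19 and MACS2 2.1.0, without roles; those of both wild-type 24 h H3K27ac libraries and of a pair of wild-type H3K4me3 libraries were not given in the sources used here. The deposited fold enrichment is the ratio over local background at the summit, as the authors' peak caller gave it. The authors' peak caller also gave the −log10 p and q values, with a lowest −log10 p of 5.0. The deposited score and summit offset, also from the authors' peak caller, were used only for summit positions (the offset) or not at all (the score). Reads were extended to 300 bp in ChIP-seq, with a 100 kb local background, per the peak names in the files. Those names show 7 processing folders, taken as batches of processing. Whether they match batches of library preparation is not known. A narrow caller splits broad H3K27me3 domains into pieces, so covered length is given beside counts.

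A region was gained or lost when it shared not even 1 bp with any region of the other group; in a group of 2 libraries, regions of the first replicate that the second also listed were counted. The share of all regions called the same way stands beside each count. The rule on overlaps was tested on simulated data. Python 3.11.15, pandas 2.3.3, numpy 2.4.6 and matplotlib 3.10.9 were used. The elements named are those in at least 2 libraries of 1 assay or nearest to a gene start; others were named after their values were seen. Members, windows and lists were chosen with earlier results of these data known. Alternatives were a −log10 q of at least 5, lists of equal length (regions of highest −log10 p kept), windows 20 kb longer on each side, merging within 1 kb (500 bp for elements), 50% overlap, leaving out each replicate, and the replicate block. Gene names of neighbours came from a GRCm38 table, used for order only; the Fgf8 strand is general knowledge. FGF pathway genes and genes of like pattern are not given, since the lists name no genes. The pair of wild-type H3K4me3 libraries has contradictory labels and entered no comparison. In the main comparisons libraries with the same replicate number were not treated as pairs, since no label says that they share a litter, day or culture. Only the replicate block paired E7.2 with E6.0 by that number, and the differences within folders set the same libraries against each other.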

Additional observations from a re-analysis of the deposited data

Results flagged for a closer look

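The pair of wild-type H3K4me3 libraries whose labels contradict each other, and which entered no comparison, listed regions in both windows where the 2 input libraries listed 0. Library 1 listed 5 regions in the Fgf5 window and library 2 listed 3. In the Fgf8 window library 1 listed 5 regions and library 2 listed 5. At the Fgf5 promoter the fold enrichment was 35.0 in library 1 and 27.6 in library 2, the first rank of the window in each. Library 1 alone listed H3K4me3 at +39.3 kb from the Fgf5 start (877 bp, fold enrichment 6.84), over an open site. No reason for that difference was tested.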

How the results depend on the processing

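Of 142 recomputed values 119 kept their direction and stayed within the spread or within 1.5 times the count, 21 moved and 2 turned direction. The spread of Wnt3 KO H3K27ac was borrowed from the wild-type 24 h pair, and that of EpiSC ATAC-seq from the E6.0 pair. H3K4me3 had no spread, so any change in it that kept its direction counted as moved, however small. Thus −48 bp (Wnt3 KO H3K27ac at Fgf8, regions within 1 kb merged) counted as kept beside −329 bp, with a borrowed SD of 637 bp. The replicate block changes only p, so its values were kept by construction. In windows 20 kb longer on each side, H3K4me3 at Fgf8 turned to −46 bp, and values moved to 2033.5 bp (wild-type H3K27ac, Fgf5), −2381 bp (H3K4me3, Fgf5), −3968 bp (H3K27me3, Fgf5), −5033.5 bp (Ring1b, Fgf5), −4988 bp (E7.2 minus E6.0, Fgf5) and −7513 bp (E7.5 minus E6.0, Fgf5). With lists of equal length they moved to 0 bp (H3K27ac at Fgf5, wild type and Wnt3 KO; Ring1b at Fgf8), −831 bp (Ring1b, Fgf5) and −2505 bp (E7.5 minus E6.0, Fgf8), and the background of wild-type H3K27ac to 35.5% gained and 23.4% lost, that of Ring1b to 37.9% gained and that of E7.2 minus E6.0 to 7.75% gained. With regions within 1 kb merged they moved to −2153 bp (H3K4me3, Fgf5), 424 bp (H3K4me3, Fgf8), 3585 bp (EpiSC ATAC-seq, Fgf8) and −6164.5 bp (E7.5 minus E6.0, Fgf8), and within 500 bp the Fgf8 elements numbered 11. A −log10 q of at least 5 moved Ring1b at Fgf5 to −2965 bp. Leaving out 1 replicate gave 1846 to 1902 bp (Fgf5) and 3704 to 4605 bp (Fgf8) for wild-type H3K27ac, −2355 to −36 bp and −3806 to −1006 bp for H3K27me3, and −3988 to −3284 bp and −1110 to −446 bp for Ring1b. For ATAC-seq it gave −3831 to −1277 bp and −5337.5 to −1238.5 bp (E7.2 minus E6.0), −3434 to −880 bp and −3205 to 894 bp (E7.5 minus E7.2, the Fgf8 value turning direction without the second E7.2 replicate) and −5509 to −3913 bp and −5112 to −3775 bp (E7.5 minus E6.0). With the replicate block E7.2 minus E6.0 stayed at −2554 and −3288 bp, with an exact p of 0.5, the smallest possible; with lists of equal length the unblocked p was 1.0 at Fgf8 (−2439 bp) and 0.333 at Fgf5 (−1696 bp). Apart from list length, which shortens lists by construction, the cause of these moves was not tested. Unknown depth limits every statement about a region that is not listed.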
